A study of Homo sapiens with 5 samples.

Results

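The small leucine-rich proteoglycans described here are 7 genes, DCN (decorin), BGN (biglycan), ASPN (asporin), LUM (lumican), FMOD (fibromodulin), PRELP and OGN (osteoglycin, or mimecan). They were chosen by name, and the level of each is the sum of FPKM over its annotated transcripts, out of 48605 genes annotated in the same tables. FPKM counts sequenced fragments for each kilobase of transcript, after the authors' scaling for library size. The samples were WI-38 cells, human diploid lung fibroblasts, grown in DMEM with fetal bovine serum and antibiotics. Their total RNA was sequenced in 5 libraries. One library came from cells at population doubling level (PDL) 15 and one from cells at PDL 55, a count of how often the culture has doubled. The other 3 came from cells at PDL 15 that received a control siRNA, an siRNA against AUF1 or an siRNA against HuR. The labels name no clone, siRNA sequence, transfection time or batch. Each group has 1 library, so no value has a replicate error and no p-value can be given. The 95% bounds printed are those deposited for each transcript, summed over the gene. They cover the estimate within 1 library and not the spread between cultures.

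Small leucine-rich proteoglycans are secreted proteins with a curved core of leucine-rich repeats. They bind collagen fibrils, set fibril diameter and spacing, and hold growth factors such as TGF-beta in the matrix. Decorin and biglycan usually carry chondroitin or dermatan sulphate chains, and lumican, fibromodulin and osteoglycin can carry keratan sulphate. Fibroblasts are a main source of decorin, biglycan and lumican in connective tissue, the lung included. AUF1 (gene HNRNPD) and HuR (gene ELAVL1) are RNA-binding proteins that bind AU-rich and U-rich stretches of mRNA, often in the 3′ untranslated region, and alter the stability or translation of their targets.

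The AU-rich pentamer ATTTA is shown for the pair of members whose levels differed most between the knockdown libraries. In the 3′ untranslated regions of GENCODE release 29, ENST00000393155 of DCN holds 3 copies and ENST00000266718 of LUM holds 4. The LUM transcript has 3008 nt in that release and 2116 nt as deposited, so some of its windows may lie outside the deposited form. These windows of 30 bases run 5′ to 3′ with ATTTA in capitals, each named by the distance in bases from the stop codon.
DCN 292: atatatgtcaatATTTAgtaaagcttttct
DCN 510: ttgaaaaaataaATTTAaaaatacattcaa
DCN 760: actgatgtttcaATTTAcccctctgctaaa
LUM 127: tgttttgtaaacATTTAttttttttaaaga
LUM 227: ctttatttgtaaATTTAgtgtttttttatt
LUM 1000: tctgaaatagatATTTAaaaaatcatttta
LUM 1132: actctgcatataATTTAtaaaaataacttc
The longer motif TATTTAT, counted on the transcript strand and overlapping ATTTA, was found in none of the 7 regions. ATTTA was also absent from the 3′ untranslated regions of BGN (1109 bases, 61.8% GC) and FMOD (1715 bases, 50.2% GC). OGN had 6 copies, ASPN 3 and PRELP 2. Among regions of similar length in other genes, 23.8% of 2077 hold as many copies as DCN and 37.9% of 2571 as many as LUM. At least 1 copy is held by 75.9% of 2329 regions as long as that of BGN. These counts describe letters and do not show binding.

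The libraries were checked before the members were read. HNRNPD, the AUF1 gene, was at 20.3 FPKM (95% bounds 16.7 to 24.0) in the AUF1 siRNA library and at 61.2 (48.1 to 74.4) with control siRNA. ELAVL1, the HuR gene, was at 9.72 FPKM (8.59 to 10.9) in the HuR siRNA library and at 11.8 (9.38 to 14.2) with control siRNA, so these bounds overlapped. The HuR knockdown is thus less clear at the mRNA level than that of AUF1. Against PDL 15 without siRNA (16.7 FPKM, bounds 15.2 to 18.1) the bounds were apart. HNRNPD was also lower at PDL 55 (42.3 FPKM) than at PDL 15 (119 FPKM). The deposited coverage per FPKM was 0.300 in the control siRNA library and between 1.14 and 1.29 in the others, so the control library was the shallowest. The summed FPKM of its assembled transcripts was 3.21e+07, against 617568 to 1.12e+06 in the others. The part of this excess in the results was not tested. Of the 13966 genes whose mean was 1 FPKM or more, 2319 were listed at exactly 0 in at least 1 library, which can be a failed estimate. Among them were VIM with control siRNA and COL1A1 with HuR siRNA. The 14 fibroblast and mesenchymal markers together reached 1763 to 9852 FPKM, with 0 to 4 of them listed at 0 in a library. The 10 epithelial markers reached 4.71 to 17.0 FPKM, the 8 blood cell markers 1.51 to 23.9, and the endothelial markers, of which the tables hold 5, 4.72 to 14.6. KRT5, NKX2-1 and HBA1 were listed at 0 in every library. The epithelial sum was mostly KRT19 (0 to 9.24 FPKM) and KRT18 (2.01 to 6.93). The endothelial sum was mostly TEK (4.19 to 13.9 FPKM), with VWF at 0.419 to 1.74. The blood cell sum was mostly CD68 (0 to 18.5 FPKM) and PTPRC (0.225 to 2.29), and both were highest in the control siRNA library. The part of these markers in the results was not tested.

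Decorin (DCN, ENSG00000011465, hg19 chr12:91539036-91576806, 9 annotated transcripts) was the most abundant of the 7 in 3 libraries and binds collagen, TGF-beta and the receptors EGFR and MET. Its level was 314 FPKM at PDL 15, 85.2 at PDL 55, 58.5 with control siRNA, 47.7 with AUF1 siRNA and 133 with HuR siRNA. PDL 15 was the highest library, HuR siRNA the next, and AUF1 siRNA the lowest. The 95% bounds of neighbours in this order did not overlap: they ran from 303 to 325 at PDL 15, 125 to 141 with HuR siRNA, 79.4 to 91.0 at PDL 55, 52.1 to 65.0 with control siRNA and 43.4 to 52.0 with AUF1 siRNA. DCN was thus 3.69-fold higher in FPKM at PDL 15 than at PDL 55 and 2.79-fold higher with HuR siRNA than with AUF1 siRNA. PDL 15 without siRNA was 5.37-fold higher than PDL 15 with control siRNA. In the gene sum that last gap, between a pair of libraries with no named knockdown, is larger than the gap between the PDL libraries. The gaps lay closer together for ENST00000393155, the DCN transcript with the most FPKM. It was at 139 FPKM at PDL 15, 43.2 at PDL 55 and 36.5 with control siRNA. In bulk RNA, fewer cells that express a gene and less RNA per cell cannot be told apart, and this holds for every level below.

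Biglycan (BGN, ENSG00000182492, hg19 chrX:152760397-152775012, 9 annotated transcripts) is the closest relative of decorin, binds collagen and TGF-beta, and in soluble form is a ligand of the receptors TLR2 and TLR4. Its level was 175 FPKM at PDL 15, 23.6 at PDL 55, 69.0 with control siRNA, 167 with AUF1 siRNA and 129 with HuR siRNA. PDL 55 was the lowest library, and PDL 15 and AUF1 siRNA stood together at the top with overlapping bounds (166 to 184 and 158 to 176). The other neighbours in the order were apart, with bounds of 122 to 137 for HuR siRNA, 60.0 to 78.0 for control siRNA and 20.4 to 26.8 for PDL 55. BGN was 7.44-fold higher in FPKM at PDL 15 than at PDL 55, and 2.93-fold higher with control siRNA than at PDL 55. It was 2.42-fold higher with AUF1 siRNA than with control siRNA, while DCN was 1.23-fold lower in the same comparison. HAUS7 overlaps the first exon of BGN and was listed at 0 in both libraries without siRNA and at 1.16 to 4.24 FPKM in the siRNA libraries. Strand was not stated, and the part of HAUS7 reads in the BGN values was not tested.

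Asporin (ASPN, ENSG00000106819, hg19 chr9:95218487-95244788, 4 annotated transcripts) resembles decorin but carries no glycosaminoglycan chain and has a stretch of aspartate residues. It was at 2.53 FPKM at PDL 15, 0.969 at PDL 55, 1.19 with control siRNA, 2.804 with AUF1 siRNA and 2.43 with HuR siRNA. PDL 55 was lowest and AUF1 siRNA highest, but the bounds of every pair of neighbours in the order overlapped. For example, they ran from 0.345 to 1.59 at PDL 55 and from 0 to 2.93 with control siRNA.

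Lumican (LUM, ENSG00000139329, hg19 chr12:91497232-91505542, 1 annotated transcript) lies next to DCN on chromosome 12 and is a keratan sulphate proteoglycan that spaces collagen fibrils in the cornea and other tissues. Its level was 41.4 FPKM at PDL 15 (bounds 39.6 to 43.2), 21.5 at PDL 55 (20.1 to 22.8), 8.47 with control siRNA (7.05 to 9.89), 10.99 with AUF1 siRNA (10.1 to 11.9) and 22.9 with HuR siRNA (21.4 to 24.3). PDL 15 was highest and control siRNA lowest, and only HuR siRNA and PDL 55 overlapped among neighbours in the order. LUM was 1.93-fold higher in FPKM at PDL 15 than at PDL 55, 2.08-fold higher with HuR siRNA than with AUF1 siRNA, and 4.89-fold higher at PDL 15 than with control siRNA.

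Fibromodulin (FMOD, ENSG00000122176, hg19 chr1:203309753-203320617, 6 annotated transcripts) binds collagen at a site shared with lumican and helps place lysyl oxidase cross-links. Its level was 12.2 FPKM at PDL 15, 8.42 at PDL 55, 3.80 with control siRNA, 8.95 with AUF1 siRNA and 10.1 with HuR siRNA. Control siRNA was the lowest library, and the bounds of neighbours overlapped throughout, from 1.30 to 6.30 with control siRNA up to 9.04 to 15.4 at PDL 15.

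PRELP and OGN were close to the limit of these libraries, with means of 0.466 and 0.573 FPKM, and did not pass the minimum mean of 1 FPKM used for ratios. PRELP (ENSG00000188783, hg19 chr1:203444956-203460480, 1 annotated transcript), which anchors basement membranes to collagen, was at 0.575 FPKM at PDL 15, 0.136 at PDL 55, 0.586 with control siRNA, 0.644 with AUF1 siRNA and 0.390 with HuR siRNA. PDL 55 was the lowest, and its bounds (0.0860 to 0.186) did not overlap those of PDL 15 (0.471 to 0.679). OGN (ENSG00000106809, hg19 chr9:95146249-95166978, 4 annotated transcripts) was at 0.843, 0.271, 0.483, 0.778 and 0.489 FPKM in the same order of libraries. PDL 55 was again the lowest, with bounds that overlapped those of its neighbour in the order. CENPP spans OGN and ASPN. It was listed at 0 at PDL 55 and at 11.7 to 20.4 FPKM in the other libraries, and its part in the OGN and ASPN values was not tested.

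**Figure D1:**
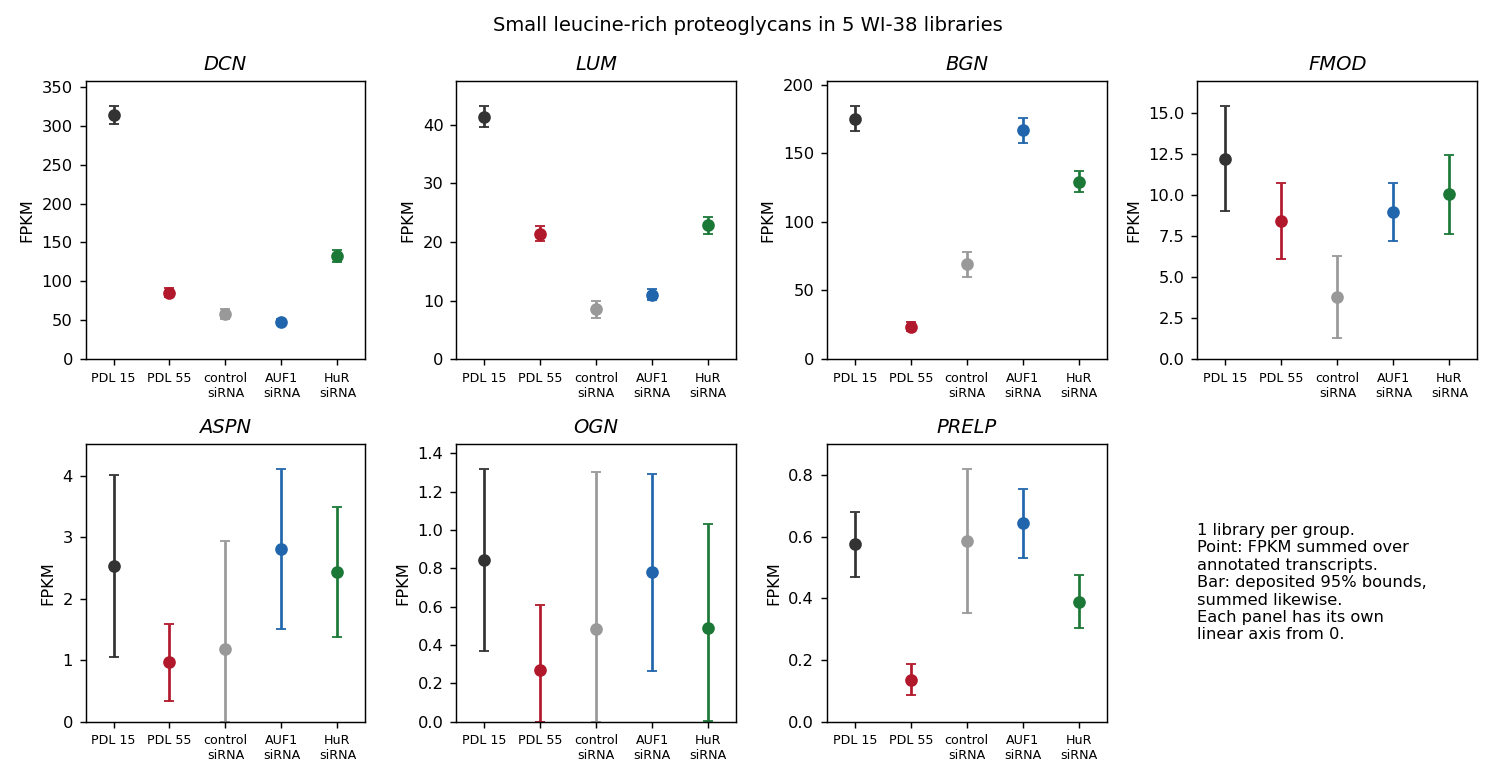
FPKM of each of the 7 genes (vertical axis, linear from 0, a separate scale per panel) in the 5 libraries (horizontal axis). Points are sums over annotated transcripts and bars the deposited 95% bounds summed likewise, with 1 library per group. DCN and LUM are highest at PDL 15, where BGN (175 FPKM) stands level with AUF1 siRNA (167 FPKM), and the lowest value of BGN, ASPN, OGN and PRELP is at PDL 55.

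For the comparisons below, log2((FPKM + 1)/(FPKM + 1)) was taken and the median of that ratio over the 13966 genes was subtracted, so 0 is the median gene and a value of 1 in size is a 2-fold difference. The pseudocount understates differences of low genes. Of the 7 members, 5 passed the minimum mean (DCN, BGN, ASPN, LUM and FMOD). The median subtracted was -0.31 in the passage comparison. It was -0.40 between control siRNA and PDL 15, 0.18 and 0.29 for AUF1 and HuR siRNA against their control, and -0.11 between the knockdowns. Several comparisons share a library, so their values stand side by side and are not separate evidence.

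At PDL 55 against PDL 15, the passage comparison, the 5 members that passed were all below the median gene. BGN was at -2.53 (limits from the deposited bounds -2.81 to -2.28), a 5.80-fold difference, and DCN at -1.56 (-1.71 to -1.42), a 2.95-fold difference. These 2 were at least 2-fold lower and 0 were at least 2-fold higher, where 8.18% of 12706 genes were lower and 8% higher by the same rule. LUM stood at -0.61 (-0.76 to -0.46), ASPN at -0.53 (-1.59 to 0.65) and FMOD at -0.18 (-0.90 to 0.53). The bounds of the FPKM values did not overlap for 3 members, DCN, BGN and LUM, against 55.8% of all genes. With the transcripts' bounds combined in quadrature in place of summed, they were apart for 5 members. The median of the 5 was -0.61. With the control siRNA library in place of PDL 15 as the younger cells, BGN was still 2.92-fold lower at PDL 55 (-1.54), whereas DCN (0.50, limits 0.25 to 0.76) and LUM (1.21, 0.92 to 1.53) stood above the median gene. FMOD was at 0.94 (-0.07 to 2.31), with limits that span 0 against either reference. By the 2-fold rule, 1 member was then lower and 1 higher, where 14.2% and 13.3% of 12429 genes were, and bounds were apart for 3 members and 45.6% of genes. BGN was therefore the 1 member at least 2-fold lower at PDL 55 against both the PDL 15 library without siRNA and the one with control siRNA, and for DCN and LUM the direction turned.

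Control siRNA against PDL 15 compares libraries of the same PDL without a named knockdown and is the background for the siRNA results. DCN was at -2.0 (-2.22 to -1.80), LUM at -1.76 (-2.06 to -1.50), FMOD at -1.06 (-2.43 to -0.06), BGN at -0.93 (-1.20 to -0.68) and ASPN at -0.29 (-1.92 to 1.34). Thus 3 members were lower by 2-fold or more and 0 higher, where 9.02% of 12555 genes were lower and 12.5% higher, and the bounds were apart for 4 members and 49% of genes. The median of the 5 was -1.06. FMOD was under 2-fold in 4 of 9 alternatives, at -0.38 with its main transcript only, -0.69 with assembled transcripts added, -0.74 with a pseudocount of 5 and -0.88 when centred on genes of 10 FPKM or more. BGN ran from -1.33 as deposited to -0.28 with its main transcript only, and was at least 2-fold lower in 4 of 9 alternatives. DCN and LUM were each at least 2-fold lower in 10 of 10. The count of lower members ranged from 2 to 4. Transfection, depth and culture cannot be told apart here.

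With AUF1 siRNA against control siRNA, decorin and biglycan stood on opposite sides of the median gene. BGN was at 1.08 (0.83 to 1.36) and DCN at -0.47 (-0.75 to -0.18), with FMOD at 0.87 (-0.02 to 2.17), ASPN at 0.62 (-0.83 to 2.17) and LUM at 0.16 (-0.16 to 0.50). One member, BGN, was at least 2-fold higher and 0 were lower, where 7.66% of 12563 genes were higher and 9.85% lower. Over 10 alternatives BGN ran from 0.12, with PDL 15 as the reference, to 1.41, and was at least 2-fold higher in 6. It was at 0.55 with its main transcript only and at 0.92 with assembled transcripts added. A BGN transcript of 916 nt was listed at 0 with control siRNA and at 46.4 FPKM with AUF1 siRNA. The bounds were apart for 4 members and 37.6% of genes, and the median of the 5 was 0.62. Against PDL 15 without siRNA, the AUF1 siRNA library had BGN at 0.12 (-0.03 to 0.28), DCN at -2.50 and LUM at -1.63. In that comparison 2 members were lower and 0 higher, with 7.49% and 8.24% of 12781 genes, and the bounds were apart for 2 members and 53.3% of genes. The higher level of BGN thus appears against the control library and not against PDL 15.

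With HuR siRNA against control siRNA, the 5 members that passed were all above the median gene. LUM was at 1.04 (0.75 to 1.36), FMOD at 0.91 (-0.05 to 2.26), DCN at 0.88 (0.64 to 1.12), BGN at 0.60 (0.34 to 0.89) and ASPN at 0.36 (-1.02 to 1.87). One member, LUM, was at least 2-fold higher and 0 were lower, where 8.37% of 12543 genes were higher and 10.3% lower. In ratios as deposited, not set against the median gene, 3 were at least 2-fold higher. The bounds were apart for 4 members and 42.6% of genes, and the median was 0.88. Against PDL 15 without siRNA the same library had DCN at -1.16 and LUM at -0.76, with 1 member lower and 0 higher, where 6.6% and 7.29% of 12769 genes were, and bounds apart for 3 members and 49.5% of genes.

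AUF1 siRNA against HuR siRNA sets a pair of transfected libraries of like coverage side by side and does not use the shallow control. DCN was at -1.35 (-1.57 to -1.14), a 2.55-fold difference, and LUM at -0.88 (-1.09 to -0.68), so both were lower with AUF1 siRNA. BGN was at 0.47 (0.31 to 0.64), ASPN at 0.26 (-0.74 to 1.22) and FMOD at -0.04 (-0.61 to 0.55). One member was at least 2-fold lower and 0 higher, where 4.76% of 12807 genes were lower and 4.61% higher. The bounds were apart for 3 members and 42% of genes, and the median of the 5 was -0.04.

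**Figure D2:**
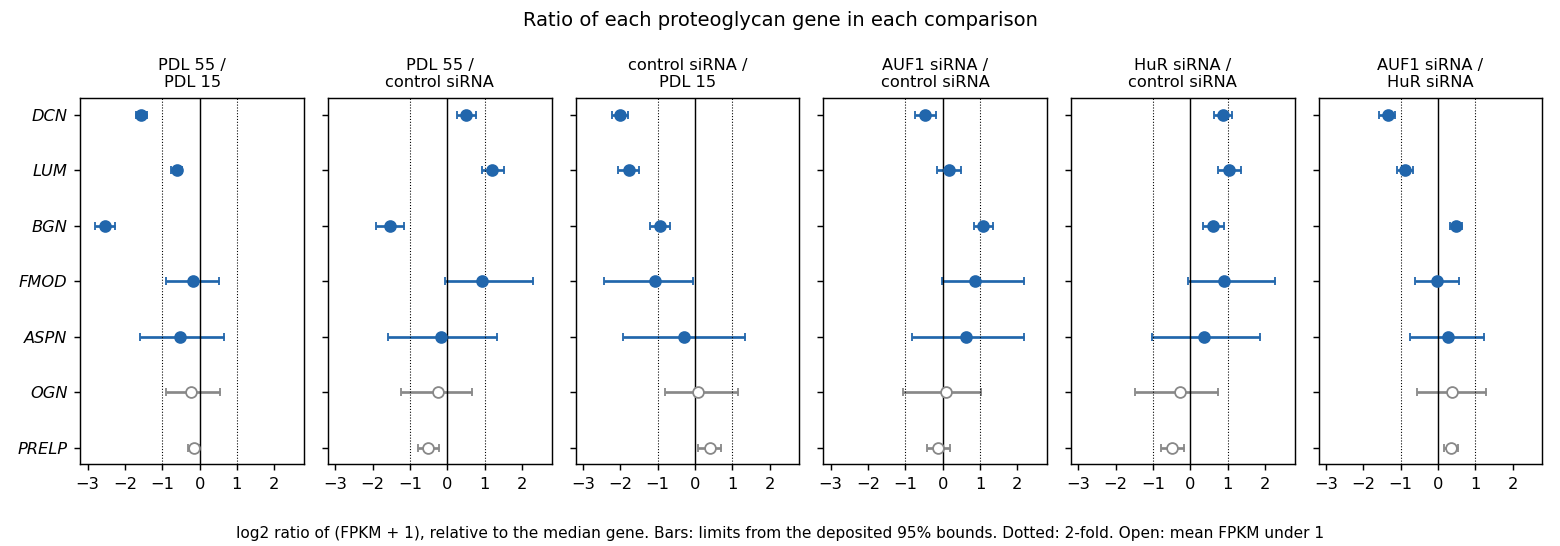
Ratio of each gene in 6 comparisons, as log2((FPKM + 1)/(FPKM + 1)) less that of the median gene (horizontal axis), with limits computed from the deposited 95% bounds as bars and dotted lines at 2-fold. Open symbols are OGN and PRELP, whose mean FPKM was under 1, and BGN lies left of the dotted line at PDL 55 against both PDL 15 (-2.53) and control siRNA (-1.54).

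The balance between decorin and biglycan, the most abundant pair, differed between libraries. Of the summed FPKM of the 7 genes, which was 547 at PDL 15, 140.0 at PDL 55, 142 with control siRNA, 239 with AUF1 siRNA and 298 with HuR siRNA, DCN held 57.4%, 60.9%, 41.2%, 20.0% and 44.5% in that order. BGN held 32.0%, 16.8%, 48.6%, 69.9% and 43.3%. DCN led at both PDL levels without siRNA and BGN led with AUF1 siRNA. The ratio of DCN to BGN FPKM was 1.79 at PDL 15, 3.62 at PDL 55, 0.849 with control siRNA, 0.286 with AUF1 siRNA and 1.03 with HuR siRNA. Because most BGN FPKM sat on short transcripts, the ratio was also taken on FPKM times transcript length with assembled transcripts added, and it was then 4.11, 6.96, 1.67, 0.584 and 1.76. AUF1 siRNA was the lowest and PDL 55 the highest library on both scales, while the value with control siRNA moved from below 1 to above 1. LUM held between 4.61% (AUF1 siRNA) and 15.3% (PDL 55) of the summed FPKM, and FMOD, ASPN, OGN and PRELP each held at most 6.01%.

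**Figure D3:**
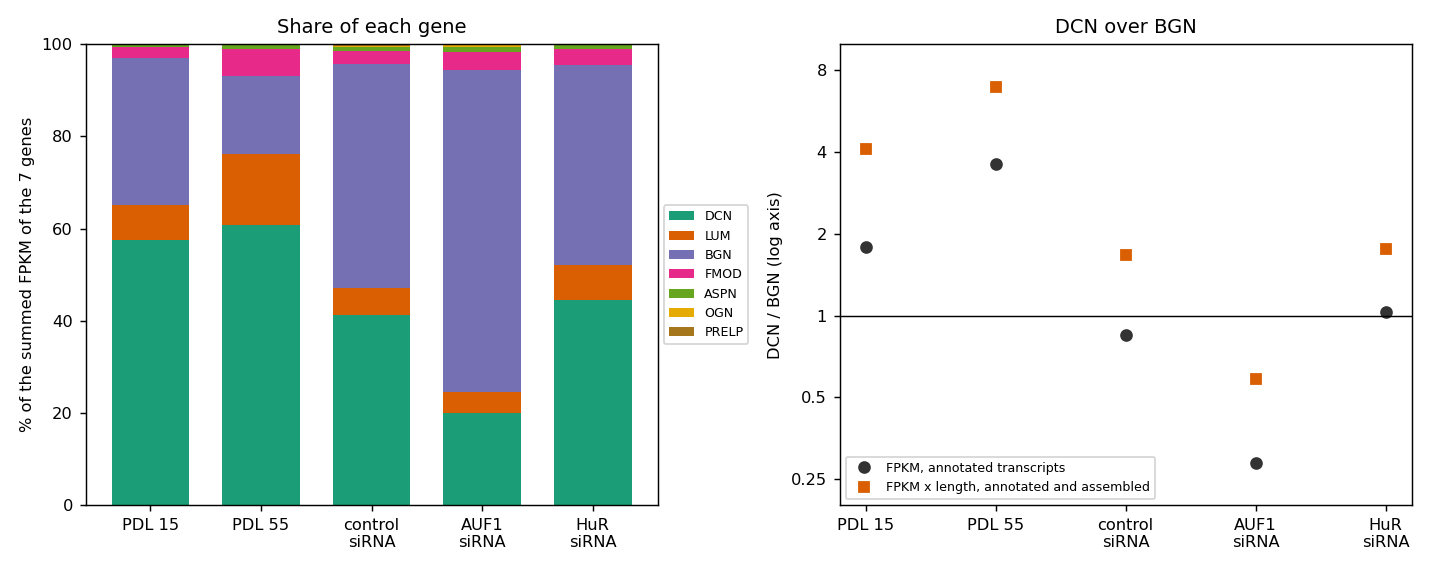
Left, share in percent of the summed FPKM of the 7 genes held by each gene in each library. Right, ratio of DCN to BGN on a log axis, from FPKM of annotated transcripts (circles) and from FPKM times length with assembled transcripts (squares), with AUF1 siRNA the lowest (0.286 and 0.584) and PDL 55 the highest (3.62 and 6.96) on both scales.

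The gene sums rest on few transcripts. The junctions shown here separate an exon-skipping transcript of DCN and of BGN from a longer transcript of the same gene. Other annotated forms of DCN and BGN were not compared exon by exon. Each line runs 5′ to 3′ across an exon junction of GENCODE release 29, with the bases after the junction in capitals.
DCN ENST00000393155, exon 2 to exon 3: agtgttctgatttggGTCTGGACAAAGTGC
DCN ENST00000420120, exon 1 to exon 2: agtgttctgatttggAACTGGGCACCAATC
BGN ENST00000331595, exon 5 to exon 6: ctggcatccccaaagACCTCCCTGAGACCC
BGN ENST00000492658, exon 2 to exon 3: ctgcgcatctcagagCTGCCCCTGCTCTCC
DCN ENST00000420120 shares the bases before the junction with the longer form and passes over its exons 3 and 4, which hold 327 bases or 109 codons. It has 753 nt in GENCODE release 29 and 1552 nt as deposited, so the deposited form may hold other exons. BGN ENST00000492658 passes over exons 6 and 7 of ENST00000331595, which hold 233 bases. Its bases before the junction differ from the end of exon 5, so more than these exons is left out. All of its 420 bases lie in exons of that full-length transcript, 294 of them in its coding part.

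The decorin transcript with the most FPKM in every library was ENST00000393155 (2133 nt), at 139 FPKM at PDL 15, 43.2 at PDL 55, 36.5 with control siRNA, 23.6 with AUF1 siRNA and 66.4 with HuR siRNA. It held 44.3% to 62.3% of the DCN sum, and its order of libraries was that of the gene. ENST00000052754 (2287 nt) reached 106 FPKM in the PDL 15 library, 20.0 in the PDL 55 library and 15.4 after AUF1 knockdown, and was listed at 0 with control and HuR siRNA. The exon-skipping ENST00000420120 was at 68.9, 22.0, 0, 8.66 and 42.8 FPKM in the order of libraries above, with the status LOWDATA in all 5. ENST00000350856 (1846 nt) was above 0 with control siRNA only (22.1 FPKM) and ENST00000228329 (1960 nt) with HuR siRNA only (23.7 FPKM). Both share the ends of ENST00000052754 and are shorter, so they may also lack exons, which was not examined. A value of 0 for ENST00000420120 thus does not show that exon-skipping forms were absent. Which minor decorin form was listed above 0 thus differed from library to library. An assembled decorin transcript of 2019 nt was present at PDL 15 only, at 55.8 FPKM, and is not in the gene sum.

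Biglycan FPKM was assigned to short annotated transcripts. The full-length ENST00000331595 was listed at 0 in all 5 libraries. ENST00000492658 (420 nt) was at 117 FPKM at PDL 15, 14.1 at PDL 55, 69.0 with control siRNA, 120.3 with AUF1 siRNA and 95.3 with HuR siRNA, and had the status LOWDATA in each. It held 59.7% to 100.0% of the gene sum. ENST00000431270 (916 nt) was at 58.3, 9.49, 0, 46.4 and 34.1 FPKM in the same order of libraries. Assembled transcripts of 1571 to 1712 nt at the gene, not in the sum, were at 47.9, 6.45, 26.8, 47.2 and 44.3 FPKM. PDL 55 was the lowest library for ENST00000492658 and for the assembled transcripts, and control siRNA was the lowest for ENST00000431270. The assembled transcripts with control siRNA and AUF1 siRNA (26.8 and 47.2 FPKM) stood in a smaller ratio to each other than the gene sums.

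Fibromodulin sat mostly on ENST00000461936 (366 nt, LOWDATA), at 7.65 FPKM at PDL 15, 5.69 at PDL 55, 3.80 with control siRNA, 8.95 with AUF1 siRNA and 8.11 with HuR siRNA. This transcript passes over exon 2 of ENST00000354955, which holds 986 bases. An assembled FMOD transcript of 2607 nt was at 1.88, 2.12, 2.61 and 1.75 FPKM in the PDL 15, control, AUF1 and HuR siRNA libraries. It was absent at PDL 55. On that transcript the control library was not the lowest of the 4. LUM and PRELP each had 1 annotated transcript, with status OK, so their levels do not depend on how reads were shared between forms.

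The members also differed in which other genes had a like profile. Profiles were log2(FPKM + 1) over the 5 libraries, each centred on its own mean, and likeness was the Euclidean distance among 6146 protein coding genes whose mean was 5 FPKM or more. The nearest to DCN were RPL10A (distance 0.56), RBM39 (0.60) and RPL7 (0.73), and LUM lay at 0.82 with 0.13% of the genes nearer. Genes near LUM included PIN4 (0.14) and EEF1A1 (0.25). RPL10A and RPL7 encode ribosomal proteins and EEF1A1 a translation elongation factor. The nearest to BGN were ZFAND6 (0.27), MATN2 (0.29) and HJURP (0.42), of which MATN2 encodes the matrix protein matrilin-2 and HJURP a centromere histone chaperone. DCN lay at 2.67 from BGN, with 69.3% of the genes nearer to BGN. FMOD had SF3A3, BCAT1 and SLC25A3 nearest, each at 0.16. The profile of DCN was therefore near that of its neighbour LUM and far from that of its closest relative BGN in these 5 points, which is a description of 5 libraries and includes their differences in depth.

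Other genes of proteoglycan and collagen assembly were read from lists chosen by function, by the same 2-fold rule. The share of all genes is given with the first counts of each comparison. Genes listed at 0 in a library of the comparison were left out of its counts. At PDL 55 against PDL 15, 6 of 10 collagens were lower by that rule and 1 was higher (median -1.23), where 8.18% of 12706 genes were lower and 8% higher. The chains of collagen VI, which forms beaded filaments that bind decorin and biglycan, had the most negative ratios, with COL6A2 at -3.35 (17.8 against 237 FPKM), COL6A1 at -2.73 (63.0 against 524) and COL6A3 at -2.68 (40.9 against 332). Of 12 other proteoglycan core proteins, 3 were lower and 1 higher (median -0.21), among them GPC6, a cell surface heparan sulphate proteoglycan, at -4.41 (3.66 against 122 FPKM), and VCAN, the large chondroitin sulphate proteoglycan versican, at -1.87 (28.1 against 131). The glypican GPC1 was at 0.88 (28.7 against 19.0 FPKM), and GPC4, the 1 higher gene, at 1.65 (4.91 against 1.33). PCOLCE, an enhancer of procollagen processing, was at -4.25 (7.71 against 205 FPKM). BGN at -2.53 lay within the range of these matrix genes.

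Enzymes that build the glycosaminoglycan chains were read in the same comparison. Of 13 chondroitin and dermatan sulphate enzymes, 0 were lower and 4 higher at PDL 55 against PDL 15, with a median of 0.64. CSGALNACT2, which starts the chondroitin chain, was at 1.52 (14.7 against 5.74 FPKM) and CHPF, a chain polymerising factor, at 1.27 (30.4 against 15.1). Of 6 enzymes of the linker between chain and protein, 1 was lower and 1 higher, with a median of 0.19. XYLT1, a xylosyltransferase that can start such a chain, was the lower gene at -1.39 (4.98 against 18.4 FPKM). XYLT2, also a xylosyltransferase, was at 0.80 (4.29 against 2.76 FPKM) and has a transcript of status FAIL. The keratan sulphate list had 2 genes measured and 0 past 2-fold. Of the 11 other small leucine-rich proteoglycans only 3 passed the minimum mean, and 0 were past 2-fold. TSKU (tsukushi) was at -0.99 (2.30 against 7.11 FPKM).

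Of 8 measured ligands and receptors that members bind, 0 were lower and 2 higher at PDL 55 against PDL 15, with a median of 0.30. MET, a receptor bound by decorin, was at 1.65 (20.7 against 7.59 FPKM) and TGFB2 at 1.34 (40.2 against 19.1). Of 4 genes of matrix processing, 1 was lower and 1 higher, and MMP2, a gelatinase that can cleave decorin, was at -0.92 (130 against 306 FPKM).

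Set against control siRNA in place of PDL 15, the PDL 55 library kept the direction of some of these genes and not of others. Of 9 collagens, 4 were lower and 0 higher (median -0.75), where 14.2% of 12429 genes were lower and 13.3% higher. COL6A2 was at -2.82, COL6A1 at -2.80 and COL6A3 at -1.61. GPC6 was at -3.84, VCAN at -1.97, PCOLCE at -2.61 and XYLT1 at -1.52. CSGALNACT2 was at 1.34, CHPF at 1.5, MET at 1.05 and TGFB2 at 1.48. MMP2 turned, at 1.40 and past 2-fold in the other direction. The medians were -0.57 for other core proteins (4 lower and 2 higher of 12), 0.31 for chondroitin and dermatan sulphate enzymes (1 lower and 3 higher of 13), -0.26 for linker enzymes (1 lower and 0 higher of 6) and -0.17 for ligands and receptors (1 lower and 3 higher of 8), so the last 2 changed sign.

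With AUF1 siRNA against control siRNA, 2 of 10 collagens were higher by the 2-fold rule and 0 lower (median 0.39). Of all 12563 genes, 7.66% were higher and 9.85% lower. COL1A2 was at 2.31 (1112 against 198 FPKM) and COL1A1 at 2.21 (4959 against 945), the chains of collagen I on whose fibrils decorin sits. MMP2 was at 2.21 (253 against 47.3 FPKM) and PCOLCE at 1.15 (130 against 51.0). Of 12 other proteoglycan core proteins 3 were lower and 0 higher, with SPOCK1 at -1.08 (4.96 against 10.1 FPKM). Among 14 chondroitin and dermatan sulphate enzymes, 1 was lower and 0 higher, which was CHPF2 at -1.82 (2.86 against 11.04 FPKM). TGFB1 was the 1 lower gene of 8 ligands and receptors, at -1.21 (4.28 against 9.80 FPKM). These values use the control library and carry its low coverage. Against PDL 15 without siRNA, the AUF1 siRNA library had COL1A1 at 1.74 and CHPF2 at -1.37, both still past 2-fold. COL1A2 was at 0.64, MMP2 at -0.08, PCOLCE at -0.46, SPOCK1 at -0.72 and TGFB1 at 0.36, so these calls ended, and for MMP2, PCOLCE and TGFB1 the sign turned. In that comparison 2 of 11 collagens were lower and 2 higher, with a median of 0.18, where 7.49% of all genes were lower and 8.24% higher. With HuR siRNA against control siRNA, 3 of 9 collagens were higher and 0 lower (median 0.77), and 1 of 11 other core proteins was lower and 2 higher (median -0.48). The shares of all genes were 8.37% higher and 10.3% lower. In AUF1 siRNA against HuR siRNA, 2 of 10 collagens were lower and 1 higher, with a median of -0.03, where 4.76% of all genes were lower and 4.61% higher. Markers of cartilage and tendon cells, in which several members are abundant, summed to 15.7 FPKM at PDL 15, 5.02 at PDL 55, 14.2 with control siRNA, 6.502 with AUF1 siRNA and 12.1 with HuR siRNA over 6 genes, mostly SOX9, with COL2A1, COMP and TNMD under 0.5 FPKM in every library. Their part in the results was not tested.

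**Figure D4:**
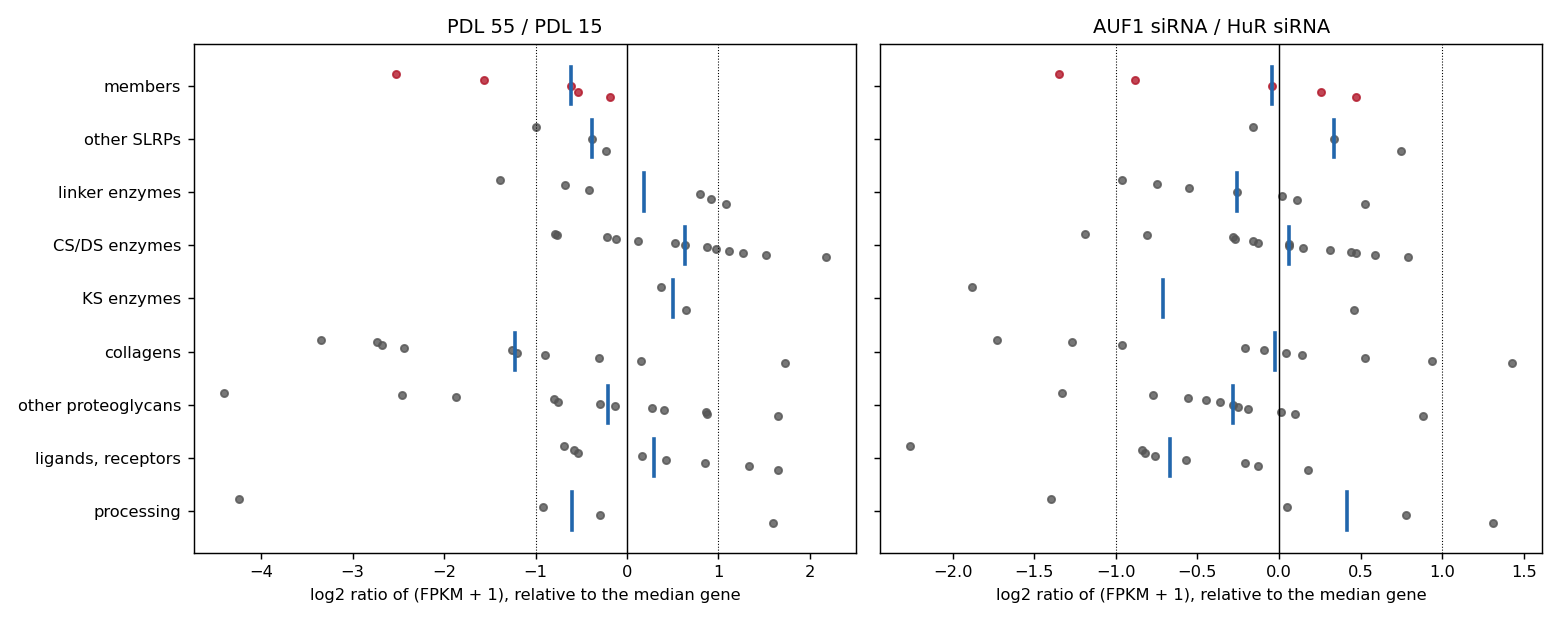
Ratio of each gene whose mean was 1 FPKM or more, relative to the median gene (horizontal axis, log2), by list (vertical axis), at PDL 55 against PDL 15 (left) and AUF1 against HuR siRNA (right). The 5 members are in red, blue bars are list medians and dotted lines mark 2-fold, and at PDL 55 the medians of the collagens (-1.23) and the members (-0.61) lie left of 0 and that of the chondroitin and dermatan sulphate enzymes (0.64) right of it, with single genes of the collagen and enzyme lists on the other side.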

How the data were processed

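Total RNA of 5 WI-38 libraries (1 per group) was amplified with single-primer isothermal amplification and sequenced on an Illumina Genome Analyzer, per the labels' protocols. The sources used here give no strand, annotation release or read numbers. TopHat2 2.0.6, Cufflinks 2.0.2, Cuffdiff and the build hg19 are named in the submitters' processing notes. Per the file headers, the authors deposited for each transcript an FPKM with its 95% bounds, a coverage signal, a length and a status. In Cufflinks, LOWDATA marks a locus too complex or too shallow for a firm estimate and FAIL a failed one.

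Transcripts were assigned to genes with GENCODE 29 identifiers, then by gene identifiers in the tables, then by position (98.6% of 160485). FPKM and bounds were summed per gene over annotated transcripts, which tends to widen the bounds. Ratios used a pseudocount of 1 and were set relative to the median of genes whose mean was 1 FPKM or more. With 1 library per group there is no test and the number of libraries limits precision. Shares of all genes leave out genes listed at 0 in either library. Python 3.11.15, numpy 2.4.6 and pandas 2.3.3 were used, and the code was tested on simulated data. Exon junctions and 3′ untranslated regions came from GENCODE 29 transcripts.

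The members and gene lists were chosen with earlier results of these data known. All members, the siRNA targets and genes overlapping a member are named. From each list the text names up to 3 genes with the largest ratios of PDL 55 against PDL 15 and of AUF1 against control siRNA (mean FPKM of at least 5, no FAIL status), and for each member of at least 5 FPKM the 3 nearest profiles, of which 1 is not reported here. Marker genes named with a level, GPC4 and XYLT2 were chosen after their values were seen. Alternatives changed the pseudocount, scaling, filter, transcripts summed, unit, way of combining bounds and reference library.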

Additional observations from a re-analysis of the deposited data

How the results depend on the processing

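The reference library decided the most. With control siRNA in place of PDL 15, 1 member was at least 2-fold lower at PDL 55 and 1 higher, against 2 and 0, and DCN, called lower against PDL 15, was at 0.50. With PDL 15 in place of control siRNA, AUF1 siRNA had 0 higher and 2 lower, against 1 and 0, and HuR siRNA had 0 higher and 1 lower, against 1 and 0, and LUM, called higher against control siRNA, was at -0.76. The count of 1 higher with AUF1 siRNA against control siRNA was 2 in ratios as deposited and with no filter, and 0 when centred on genes whose mean was 10 FPKM or more, with assembled transcripts added, or with the main transcript only. It was also 0 with LOWDATA and FAIL transcripts left out, where 2 members were counted and BGN, left with a control value of 0, could not be called. The count of 1 higher with HuR siRNA was 3 as deposited and with no filter, 2 with a pseudocount of 0.1, and 0 with a pseudocount of 5, centred on those genes, with assembled transcripts added or with the main transcript only. For the AUF1 count with the main transcript only, BGN was at 0.55, from 120.3 FPKM with AUF1 siRNA and 69.0 with control siRNA. Beyond these values and the last of the AUF1 settings, the cause was not tested for these counts. The 3 members lower with control siRNA against PDL 15 ranged from 2 to 4. With LOWDATA and FAIL transcripts left out, DCN was at -1.65 in that comparison and also at -1.65 at PDL 55 against PDL 15. BGN at PDL 55 against PDL 15 was at least 2-fold lower in 11 of 11 alternatives (-2.84 to -1.54), and DCN in AUF1 against HuR siRNA in 10 of 10 (-1.46 to -1.08). Leaving genes with a FAIL transcript and small RNA genes out of the median was added after seeing the data. No paired analysis was possible because each group has 1 library. Depth limits FMOD, ASPN, OGN and PRELP most, and with control siRNA above all.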
